A study of Mus musculus with 15 samples.

Results

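Interleukin and interleukin receptor genes were described in microvessels, the smallest blood vessels, isolated from mouse brain in an orthotopic glioblastoma model. They were taken as every protein-coding row of the deposited table whose symbol begins with Il and a digit, which gave 62 genes of 27174 rows, of which 16753 rows are protein-coding. RNA sequencing covered 15 libraries in 5 groups of 3, all from adult wild-type BL6/57 mice, and each library was a pool of 3 mice. The triple therapy group received Aflibercept-AMG386 together with anti-PD1, and the dual therapy group received Aflibercept-AMG386 alone. Aflibercept is a decoy receptor for VEGF, AMG386 is a peptibody that neutralises angiopoietins, and anti-PD1 blocks an inhibitory receptor of T cells. The untreated tumour group received control IgG, and these 3 groups were sampled from the tumour-bearing region 21 days after tumour cells were transplanted. The contralateral group was the opposite, tumour-free region of mice that also received control IgG, and the sham group came from healthy mice after a sham operation. Neither the line of the transplanted cells, nor the doses, nor whether contralateral and tumour tissue shared mice is stated. P-values measure the spread between pools, not between mice.

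Interleukins are small secreted proteins through which leukocytes, endothelial cells and glia signal to each other. Most act through receptors that pair a specific chain with a shared one, such as the common gamma chain, the IL-6 signal transducer gp130 or the IL-1 receptor accessory protein. IL-1 and IL-17 receptors signal through adaptor proteins to NF-kappaB, and the other families mainly through JAK kinases and STAT factors. Brain endothelium is known to carry the IL-1 receptor and to respond to IL-1 by recruiting leukocytes.

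The promoters of 4 members are shown as examples, to place matches to known binding motifs, or their lack, in each. They are not a ranking of the results. In untreated tumour against contralateral, Il18rap, Il2rb and Il7r had smaller p-values by limma than Il6 and Il18r1 but are not shown. Il1rn and Il18r1 have several starts, and a window with a match is shown for each. Sequences are from RefSeq (GRCm38.p6), from 250 bases before to 50 bases after a transcription start, in which 50 of the 62 genes were matched with 63 promoters. Capitals mark a match to an NF-kappaB-like motif (GGGNNTTTCC) in Il6 and Il1rn, and a STAT-like motif (TTCNNNGAA) in Il18r1. No capitals appear in Il1b, which held neither of these nor an interferon-response-like motif (GAAANNGAAA). The windows lie at chr5:30012864-30013163 (plus strand, Il6), chr2:24345121-24345420 (plus strand, Il1rn), chr2:129371090-129371389 (minus strand, Il1b) and chr1:40465756-40466055 (plus strand, Il18r1).
Il6: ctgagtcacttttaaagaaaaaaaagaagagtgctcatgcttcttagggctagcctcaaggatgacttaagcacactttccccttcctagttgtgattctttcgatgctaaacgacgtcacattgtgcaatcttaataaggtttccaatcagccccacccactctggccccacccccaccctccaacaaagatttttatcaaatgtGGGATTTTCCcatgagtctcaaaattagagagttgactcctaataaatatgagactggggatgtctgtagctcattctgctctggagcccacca
Il1rn: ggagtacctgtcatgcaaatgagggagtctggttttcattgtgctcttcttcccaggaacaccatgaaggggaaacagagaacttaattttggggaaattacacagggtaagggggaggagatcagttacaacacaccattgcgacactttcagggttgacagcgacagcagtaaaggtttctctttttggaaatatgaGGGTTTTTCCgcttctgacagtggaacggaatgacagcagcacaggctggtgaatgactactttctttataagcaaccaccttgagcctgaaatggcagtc
Il1b: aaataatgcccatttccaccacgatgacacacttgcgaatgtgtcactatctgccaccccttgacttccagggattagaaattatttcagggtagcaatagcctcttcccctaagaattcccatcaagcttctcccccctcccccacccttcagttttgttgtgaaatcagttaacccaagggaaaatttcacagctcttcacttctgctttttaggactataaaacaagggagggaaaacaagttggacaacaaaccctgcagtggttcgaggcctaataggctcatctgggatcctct
Il18r1: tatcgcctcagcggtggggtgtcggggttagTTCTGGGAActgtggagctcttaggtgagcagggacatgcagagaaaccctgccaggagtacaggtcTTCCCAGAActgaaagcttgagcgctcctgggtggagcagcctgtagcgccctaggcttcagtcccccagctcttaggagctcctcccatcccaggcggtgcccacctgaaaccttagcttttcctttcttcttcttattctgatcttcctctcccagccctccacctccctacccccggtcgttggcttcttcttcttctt

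Both strands were searched, and no match of one motif overlapped a match of another in the windows shown. The NF-kappaB-like letters began 44 bases before the start in Il6 and 51 bases before it in Il1rn. They were found in 7 of 63 member promoters, which belong to Il16, Il17rc, Il1rn, Il23r, Il4ra and Il6, and in 1.6% of all 32851 promoters. The STAT-like letters were in 8 member promoters and in 8.3% of all promoters, and the interferon-response-like letters were in 2 member promoters and in 3.4% of all. Genes with several starts were not uniform. The other 2 Il18r1 windows held no STAT-like match, and of the other 2 Il1rn windows 1, overlapping the window shown, held the same NF-kappaB-like letters after its start, and 1 at a start farther upstream held none. A match is a description of the letters and not a measured binding site.

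Values are the deposited normalised scores, which are whole numbers scaled to be comparable between libraries and are not read counts. Library totals were 11134670 to 15799111 score units, and depth was estimated at 6368770 to 18318084 reads. Of the 62 members, 48 reached a score of 10 in at least 3 libraries and were tested. The other 14 were Il2, Il4, Il5, Il21, Il10, Il17c, Il1f9 (IL-36 gamma) and Il23a among the ligands, Il5ra, Il9r, Il17re, Il20ra and Il23r among the receptors, and Il4i1, an amino acid oxidase. Of those tested, 6 (Il1a, Il1b, Il1rn, Il1r2, Il12b and Il27) had no contralateral or sham library at 10 or above, so they passed this filter through the tumour-bearing groups alone. These 6 had to be higher there, and their calls against contralateral and sham are given as description. A gene was called when its adjusted p, from limma with Benjamini-Hochberg adjustment over 19668 tested rows, was below 0.05, and fold changes are log2 with the standard error (SE) of the fit. On this log2(score + 1) scale, fold changes of genes with scores near 0 depend on the added 1. Where groups are said not to overlap, this is description only, since the share of all rows without overlap was not counted. In an F-test, 35 of the 48 tested members differed among the 5 groups, against 43.5% of all rows tested. The 6 members that passed the filter through the tumour-bearing groups alone were all among the 35, so this count is description too.

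The libraries were those of endothelium with other cells present. Endothelial identity markers, such as Pecam1 and Cdh5, summed to 67055 to 122669 in every library and none was at 0. Untreated tumour replicate 2 stood apart in RNA composition, with 33.2% of its score in mitochondrial ribosomal RNA, against 21.5% and 22.4% in the other untreated tumour libraries. The share also moved with the groups, at 9.55% to 12.2% after triple therapy, 15.2% to 17.4% after dual therapy, 14.5% to 15.8% in contralateral and 11.9% to 12.4% in sham libraries. Its part in the results was not tested. Dual therapy replicate 2 lay at -66.4 on the second principal component, the lowest of all libraries. Results below were computed again without these libraries, and calls that ended are named.

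Interleukin genes were mostly higher in untreated tumour microvessels than on the contralateral side. Of the 48 tested members, 28 rose and 5 fell, against 21.1% higher and 21.4% lower over all rows tested. The median member differed by 1.05 on the log2 scale, and the median over all rows by 0.01. All 6 members that had passed the filter through tumour-bearing groups alone were among the 28. Among the other 42, 22 rose and 5 fell, with a median of 0.87. Against sham, 29 rose (23.3% of all rows did) and 6 fell (23.3% of all rows). The median member differed by 1.29 from sham, and the median over all rows by 0.03. Without the same 6, 23 rose and 6 fell, with a median of 0.98. Both comparisons use the untreated tumour libraries, so they are not independent of each other. In all, 26 members rose against contralateral and sham alike, and Il1r1, Il1rapl1, Il10rb and Il17rd fell against both. The share of all rows called the same way in both comparisons was not counted. When libraries were scaled on their endothelial identity markers instead, the median of all rows shifted to 0.26 against contralateral and 0.22 against sham. The share of called rows that were higher was then 70.1%, in place of 49.6%, against contralateral, and 63.5%, in place of 49.9%, against sham. No called member changed sign under that scaling.

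**Figure D1:**
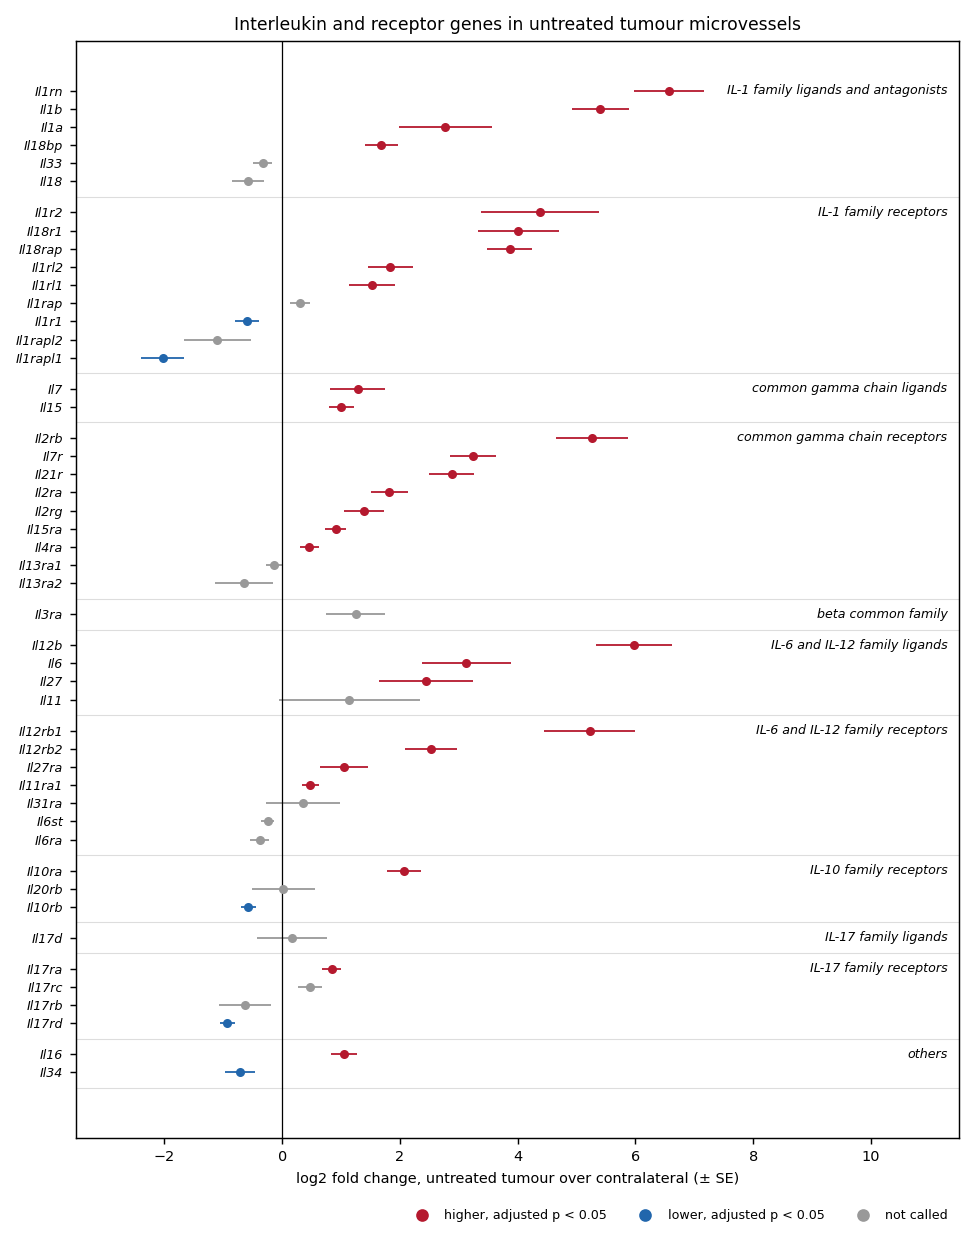
Log2 fold change of untreated tumour over contralateral for the 48 tested members, grouped by role, with the SE of the fit. The 28 red points rose and the 5 blue points fell, and grey points were not called. The Il12b point depends on the added 1, since its contralateral libraries are listed at 0.

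Among IL-1 family ligands and their antagonists, 4 of 6 tested members rose and none fell against contralateral. Of these, Il1a, Il1b and Il1rn had passed the filter through tumour-bearing groups alone, so their direction was set by it and Il18bp alone was free to differ. Il1b, the inflammatory cytokine IL-1 beta, had scores of 186, 228 and 212 in untreated tumour, against 4, 5 and 3 in contralateral and 4, 2 and 8 in sham microvessels. Every untreated tumour library was far above every contralateral and sham library, with a fold change of 5.41 ± 0.48 (SE, adjusted p = 1.26e-07). Il1rn, the secreted antagonist of the same receptor, had 187, 359 and 304 in untreated tumour, against 3, 5 and 0 in contralateral and 1, 0 and 0 in sham libraries. Again the groups did not overlap. The fold change of Il1rn against contralateral was 6.57 ± 0.59 (adjusted p = 1.56e-07), and 5.24 to 7.01 with a pseudocount of 5 or 0.5. Il18bp, which binds and blocks IL-18, had 418, 279 and 369 in untreated tumour, against 95, 104 and 128 in contralateral and 102, 71 and 91 in sham libraries. The groups did not overlap, and the fold change was 1.69 ± 0.27 (adjusted p = 7.48e-05). Il1a, IL-1 alpha, was low, with 28, 32 and 11 in untreated tumour, against 5, 0 and 5 in contralateral libraries (2.77 ± 0.79, adjusted p = 0.00862). Without contralateral replicate 2 its fold change was 1.91 (adjusted p = 0.0579). Il18 itself did not pass in the fit reported here: its scores were 88, 49 and 65 in untreated tumour, against 99, 72 and 133 in contralateral and 75, 63 and 98 in sham libraries. Quantile normalisation, quality weights, or leaving out untreated tumour replicate 1 or contralateral replicate 2 gave a lower call of Il18 against contralateral (adjusted p = 0.0175 to 0.0359). Il33, an alarmin held in cell nuclei, had 98, 89 and 100 in untreated tumour, against 137, 125 and 102 in contralateral libraries (-0.33 ± 0.16, adjusted p = 0.0992) and 163, 153 and 180 in sham libraries. It fell against sham (-0.78 ± 0.16, adjusted p = 0.000487), and those groups did not overlap. Against contralateral Il33 was called lower with quantile normalisation, without the mean-variance trend or without contralateral replicate 3 (adjusted p = 0.0133, 0.0436 and 0.0466).

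The IL-1 family receptors divided: 5 of 9 rose, and Il1r1 and Il1rapl1 fell. Among those that rose, Il1r2 had passed the filter through tumour-bearing groups alone, so its direction was set by it. Il1r2, a decoy receptor that binds IL-1 without signalling, had 65, 28 and 46 in untreated tumour, against 4, 1 and 0 in contralateral and 2, 0 and 2 in sham libraries (4.38 ± 1.01 against contralateral, adjusted p = 0.00181). Il18r1 and Il18rap encode the 2 chains of the IL-18 receptor. Il18r1 had 95, 68 and 90 in untreated tumour, against 5, 11 and 1 in contralateral and 7, 0 and 2 in sham libraries (4.01 ± 0.69, adjusted p = 0.000139). Il18rap had 204, 169 and 220 in untreated tumour, against 15, 12 and 11 in contralateral and 7, 7 and 9 in sham libraries (3.86 ± 0.38, adjusted p = 3.28e-07). In each of these 3 genes, every untreated tumour library was above every contralateral and sham library. Il1rl1, the IL-33 receptor ST2, had 47, 32 and 86 in untreated tumour, against 16, 16 and 19 in contralateral libraries (1.53 ± 0.39, adjusted p = 0.00372). Il1rl2, the IL-36 receptor, had 73, 62 and 49 in untreated tumour, against 8, 18 and 29 in contralateral libraries (1.84 ± 0.38, adjusted p = 0.000785). Neither pair of groups overlapped.

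Il1r1, the signalling receptor of IL-1, was abundant in every group. Its scores were 1500, 2400 and 2182 in untreated tumour, against 4027, 2397 and 2787 in contralateral and 3804, 3163 and 2621 in sham libraries. Untreated tumour replicate 1 was the lowest of these, and replicate 2 reached the lowest contralateral library. The gene fell by 0.59 ± 0.20 against contralateral (adjusted p = 0.0248) and by 0.67 ± 0.20 against sham (adjusted p = 0.0112). The Il1r1 difference from contralateral without untreated tumour replicate 1 or contralateral replicate 1 was -0.39 (adjusted p = 0.146) or -0.38 (adjusted p = 0.16). That from sham was, without untreated tumour replicate 1 or sham replicate 1, -0.47 (adjusted p = 0.0751) or -0.53 (adjusted p = 0.0658). Endothelial identity scaling and quantile normalisation also ended these calls, with adjusted p of 0.201 and 0.0899 against contralateral. Il1rap, the accessory chain that IL-1 and IL-33 receptors share, did not pass, with 598, 307 and 440 in untreated tumour, against 344, 382 and 325 in contralateral libraries. It passed without untreated tumour replicate 2, at an adjusted p of 0.00567. Il1rapl1, a synaptic relative of these receptors, had 119, 24 and 77 in untreated tumour, against 208, 289 and 262 in contralateral and 291, 380 and 327 in sham libraries (-2.03 ± 0.37 against contralateral, adjusted p = 0.000215). Neuron markers fell beside it: 9 of 10 were lower, with sums of 2503 to 4650 in untreated tumour, against 13324 to 15931 in contralateral libraries. Their part in the result was not tested. Its relative Il1rapl2 fell against sham alone in the fit reported here, with 12, 7 and 10 in untreated tumour, against 42, 56 and 52 in sham libraries (-2.28 ± 0.58, adjusted p = 0.00328). Contralateral libraries had 10, 33 and 29. Against them Il1rapl2 was called lower with quantile normalisation (adjusted p = 0.036) and without dual therapy replicate 2 or contralateral replicate 1 (adjusted p = 0.0461 and 0.0442).

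Of the IL-1 family receptors, 6 lie next to each other on chromosome 1, in the order Il1r2, Il1r1, Il1rl2, Il1rl1, Il18r1 and Il18rap, all on the plus strand. In GENCODE M21 (GRCm38) no other protein-coding gene lies between them, from position 40074079 to 40551705. Within this run Il1r1 fell in untreated tumour while its 5 neighbours rose. Their levels per length also differed. Per kilobase of exon, Il1r1 averaged 318.6 in untreated tumour and 482.5 in contralateral libraries, above every other member apart from Il6st.

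**Figure D2:**
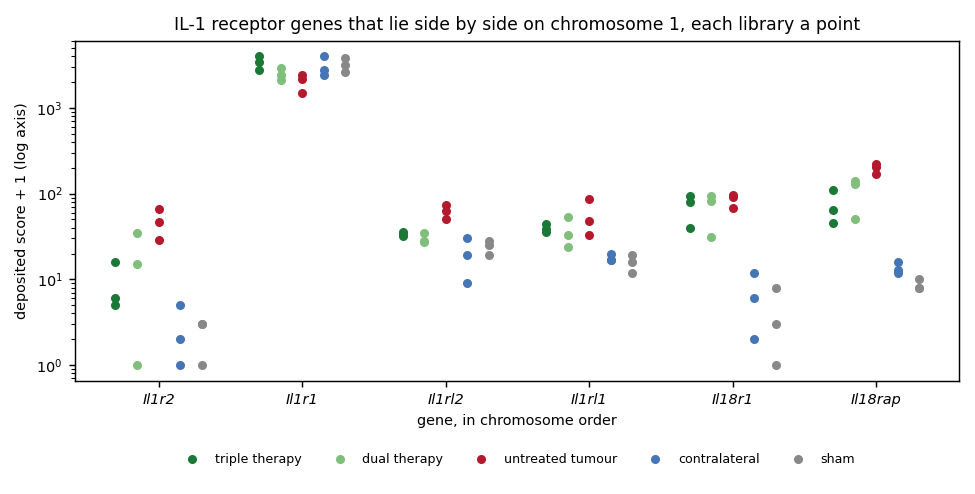
Deposited score + 1 (log axis) of the 6 IL-1 receptor genes that lie side by side on chromosome 1, in chromosome order, with each library as a point coloured by group. Il1r1 lies between 1500 and 4027 in all 15 libraries, and the other 5 genes are higher in untreated tumour than in contralateral and sham libraries.

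Common gamma chain cytokines support the growth and survival of lymphocytes, and of 9 tested receptor genes grouped with them, 7 rose and none fell. The group includes Il13ra1 and Il13ra2, chains for IL-13, which does not use the common gamma chain, and neither of them was called. Il2rb, the beta chain that IL-2 and IL-15 share, had 103, 145 and 175 in untreated tumour, against 11, 0 and 3 in contralateral and 5, 4 and 7 in sham libraries (5.25 ± 0.61, adjusted p = 2.38e-06). Il7r, the IL-7 receptor alpha chain of T cells, had 94, 140 and 158 in untreated tumour, against 19, 13 and 8 in contralateral and 8, 7 and 3 in sham libraries (3.24 ± 0.39, adjusted p = 2.99e-06). Il21r, the IL-21 receptor, had 138, 166 and 217 in untreated tumour, against 28, 19 and 21 in contralateral libraries (2.88 ± 0.38, adjusted p = 7.76e-06). None of these groups overlapped, and untreated tumour was higher each time. Il2ra, the high-affinity chain of the IL-2 receptor, had 212, 203 and 270 in untreated tumour, against 56, 65 and 70 in contralateral libraries (1.82 ± 0.31, adjusted p = 0.00014). Il2rg, the common gamma chain, had 182, 156 and 222 in untreated tumour, against 51, 110 and 60 in contralateral libraries (1.39 ± 0.34, adjusted p = 0.00295). It shares 30.5% of its exonic bases with Gm20489 on the same strand, so its level is uncertain. Il15ra, which presents IL-15 to neighbouring cells, rose by 0.91 ± 0.18 against contralateral (adjusted p = 0.000489). Its scores were 250, 180 and 219 in untreated tumour, against 109, 121 and 112 in contralateral and 156, 147 and 160 in sham libraries, with no overlap.

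Il4ra, the chain shared by IL-4 and IL-13 receptors, had 768, 939 and 792 in untreated tumour, against 623, 767 and 458 in contralateral and 358, 341 and 322 in sham libraries. The lowest untreated tumour library was just above the highest contralateral one. Il4ra rose by 0.46 ± 0.17 against contralateral (adjusted p = 0.0319) and by 1.28 ± 0.17 against sham (adjusted p = 4.81e-06). The Il4ra difference from contralateral was 0.37 (adjusted p = 0.109) without untreated tumour replicate 2, 0.49 (adjusted p = 0.0569) without contralateral replicate 1 and 0.26 (adjusted p = 0.214) without contralateral replicate 3. Il13ra1, its partner, did not pass in any comparison of the fit reported here and was between 832 and 1294 in all 15 libraries. Against sham it was called higher in untreated tumour with quantile normalisation (0.39, adjusted p = 0.0262) and endothelial identity scaling (0.43, adjusted p = 0.0357). Of the ligands of this family, Il15 and Il7 were tested and both rose. Il15, a growth factor of NK cells and memory T cells, had 178, 176 and 180 in untreated tumour, against 87, 80 and 99 in contralateral and 84, 104 and 77 in sham libraries (1.003 ± 0.212, adjusted p = 0.000923). Il7 had 56, 24 and 33 in untreated tumour, against 10, 16 and 17 in contralateral libraries (1.28 ± 0.47, adjusted p = 0.0358). The Il7 difference was 0.96 without untreated tumour replicate 1 (adjusted p = 0.163), and without contralateral replicate 1 it was 1.06 (adjusted p = 0.13). The call also ended without untreated tumour replicate 3 (adjusted p = 0.0618) or contralateral replicate 2 (adjusted p = 0.053). Il2, Il4 and Il21 were at 11 or below in every library.

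In the IL-6 and IL-12 families, 3 of 4 tested ligands and 4 of 7 tested receptors rose against contralateral. Of these ligands, Il12b and Il27 had passed the filter through tumour-bearing groups alone, so their direction was set by it. Il12b, the p40 subunit that IL-12 and IL-23 share, had 49, 65 and 74 in untreated tumour and was listed at 0 in all 6 contralateral and sham libraries. No fold or test is given for it, since either would depend on the value added to 0. Il6, a fever and acute-phase cytokine, had 28, 34 and 28 in untreated tumour, against 3, 10 and 0 in contralateral and 0, 0 and 3 in sham libraries. These groups did not overlap, and Il6 rose by 3.13 ± 0.76 against contralateral (adjusted p = 0.00266). Il27 was lower still, with 5, 17 and 8 in untreated tumour, against 1, 2 and 0 in contralateral libraries (2.45 ± 0.80, adjusted p = 0.0195). It shares 10.1% of its exonic bases with Apobr on the opposite strand. Without untreated tumour replicate 2 or contralateral replicate 3 the Il27 difference was 2.02 in each case (adjusted p = 0.0828 and 0.0847). Il12rb1, the receptor chain for p40, had 328, 120 and 234 in untreated tumour, against 9, 1 and 8 in contralateral and 2, 0 and 14 in sham libraries (5.22 ± 0.77, adjusted p = 3.01e-05). Il12rb2, which completes the IL-12 receptor, had 57, 38 and 85 in untreated tumour, against 8, 13 and 7 in contralateral libraries (2.53 ± 0.45, adjusted p = 0.000173). It shares 40.0% of its exonic bases with Serbp1 on the opposite strand, and whether reads were counted by strand is not stated. Untreated tumour lay above contralateral and sham in every library of both receptor genes.

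In the fit reported here, neither IL-6 receptor chain passed in untreated tumour, against contralateral or sham, while the IL-11 and IL-27 receptors were called against contralateral. Il6st, which encodes gp130, had 6586, 7663 and 8168 in untreated tumour, against 9178, 9471 and 7845 in contralateral and 6893, 6535 and 6568 in sham libraries, with overlap (-0.24 ± 0.11 against contralateral, adjusted p = 0.0809). Per kilobase of exon it had the highest level of all members, 673.2 in untreated tumour, 795.7 in contralateral and 600.5 in sham libraries. Il6ra, the specific chain for IL-6, had 467, 610 and 709 in untreated tumour, against 900, 744 and 669 in contralateral libraries (-0.38 ± 0.17, adjusted p = 0.0738). Without untreated tumour replicate 3, both chains were called lower against contralateral (adjusted p = 0.0496 for Il6st and 0.0279 for Il6ra). Il6st was also called lower without contralateral replicate 3 (adjusted p = 0.0387). Against sham, Il6st was called higher with quantile normalisation (0.47, adjusted p = 0.000743) and endothelial identity scaling (0.35, adjusted p = 0.0199). Among all 5 groups, both chains differed by the F-test (adjusted p = 0.0207 for Il6st and 0.0165 for Il6ra). Il11ra1, the IL-11 receptor, had 277, 389 and 280 in untreated tumour, against 231, 215 and 223 in contralateral libraries (0.48 ± 0.14, adjusted p = 0.0116). It has a near-identical copy gene, so its level is uncertain. The Il11ra1 difference was 0.32 without untreated tumour replicate 2 (adjusted p = 0.0722). Il27ra had 47, 33 and 60 in untreated tumour, against 30, 17 and 19 in contralateral libraries (1.05 ± 0.41, adjusted p = 0.0451), a call that ended in 13 of 26 alternatives. Without untreated tumour replicate 3 or contralateral replicate 2 the Il27ra difference was 0.85 (adjusted p = 0.153) or 0.90 (adjusted p = 0.133). It was 1.03 (adjusted p = 0.0972) without untreated tumour replicate 1 and 0.97 (adjusted p = 0.115) without contralateral replicate 3, and the call also ended without any of the 3 triple therapy libraries or sham replicate 3 (adjusted p = 0.0534 to 0.0567).

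In the IL-10 and IL-17 families, receptor chains moved in both directions. Il10ra, the IL-10 receptor chain of leukocytes, had 289, 266 and 471 in untreated tumour, against 75, 58 and 110 in contralateral and 50, 61 and 54 in sham libraries (2.07 ± 0.29, adjusted p = 1.87e-05). Il10rb, the widely expressed second chain, had 366, 508 and 363 in untreated tumour, against 572, 645 and 603 in contralateral and 616, 620 and 583 in sham libraries (-0.57 ± 0.13, adjusted p = 0.00165). Every untreated tumour library was above the others for Il10ra and below them for Il10rb, which shares 14.9% of its exonic bases with Gm21970 on the same strand. Il10 itself was not tested, with 52, 9 and 15 in untreated tumour and 4 or less in all contralateral and sham libraries. Il17ra, the shared IL-17 receptor chain, had 436, 368 and 428 in untreated tumour, against 221, 265 and 203 in contralateral and 147, 167 and 142 in sham libraries (0.84 ± 0.17, adjusted p = 0.000475). Il17rd, also known as Sef, an inhibitor of growth factor signalling, had 452, 458 and 564 in untreated tumour, against 932, 922 and 942 in contralateral and 817, 841 and 905 in sham libraries (-0.93 ± 0.13, adjusted p = 1.59e-05). Again no groups overlapped. The tested IL-17 ligand, Il17d, was at 31 or below in every library and did not pass.

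Outside these families, Il16 and Il34 were called in opposite directions. Il16, a chemoattractant of CD4+ cells, had 159, 137 and 127 in untreated tumour, against 70, 56 and 78 in contralateral and 41, 48 and 31 in sham libraries (1.05 ± 0.22, adjusted p = 0.000854), with no overlap. It shares 15.3% of its exonic bases with Stard5 on the opposite strand. Il34, a ligand of the CSF-1 receptor that maintains microglia, had 79, 117 and 115 in untreated tumour, against 173, 121 and 226 in contralateral and 176, 145 and 142 in sham libraries. Its groups did not overlap either, and it fell by 0.71 ± 0.25 against contralateral (adjusted p = 0.0274). The Il34 difference was -0.53 (adjusted p = 0.129) without untreated tumour replicate 1, -0.69 (adjusted p = 0.0704) without contralateral replicate 1 and -0.50 (adjusted p = 0.156) without contralateral replicate 3. Il3ra, the IL-3 receptor, rose against sham (2.06 ± 0.51, adjusted p = 0.00254), with 41, 34 and 56 in untreated tumour, against 4, 22 and 9 in sham and 18, 14 and 21 in contralateral libraries. Against contralateral Il3ra was not called (1.25, adjusted p = 0.0544). It passed there in several alternatives, among them only the 6 libraries compared in the fit (adjusted p = 0.0231) and quality weights (adjusted p = 0.028). Il17rc rose against sham by 0.55 ± 0.20 (adjusted p = 0.0346), with 189, 147 and 206 in untreated tumour, against 136, 127 and 105 in sham libraries. Without untreated tumour replicate 1 or 3, or sham replicate 2 or 3, the adjusted p of Il17rc was 0.0599 to 0.134. Against contralateral Il17rc was not called (0.48, adjusted p = 0.0686). It passed there in several alternatives, among them quality weights (adjusted p = 0.0143) and endothelial identity scaling (adjusted p = 0.0152). Il11, a relative of IL-6, had 12, 40 and 9 in untreated tumour, against 3, 124 and 0 in contralateral and 0, 2 and 2 in sham libraries. It was called against sham (3.07 ± 1.20, adjusted p = 0.0427), but the call ended in 12 of 26 alternatives, among them each omission of a sham library (adjusted p = 0.0623 to 0.143), of untreated tumour replicate 1 or 2 (adjusted p = 0.0644 and 0.141) and of triple therapy replicate 2 or 3 (adjusted p = 0.0503 and 0.05). Of the 48 tested members, 39 were called in at least 1 of the 6 comparisons of the fit reported here. The others were Il18, Il1rap, Il13ra1, Il6ra, Il6st and Il17d, described above, and Il31ra, Il20rb and Il17rb, which stayed between 3 and 44 in every library.

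**Figure D3:**
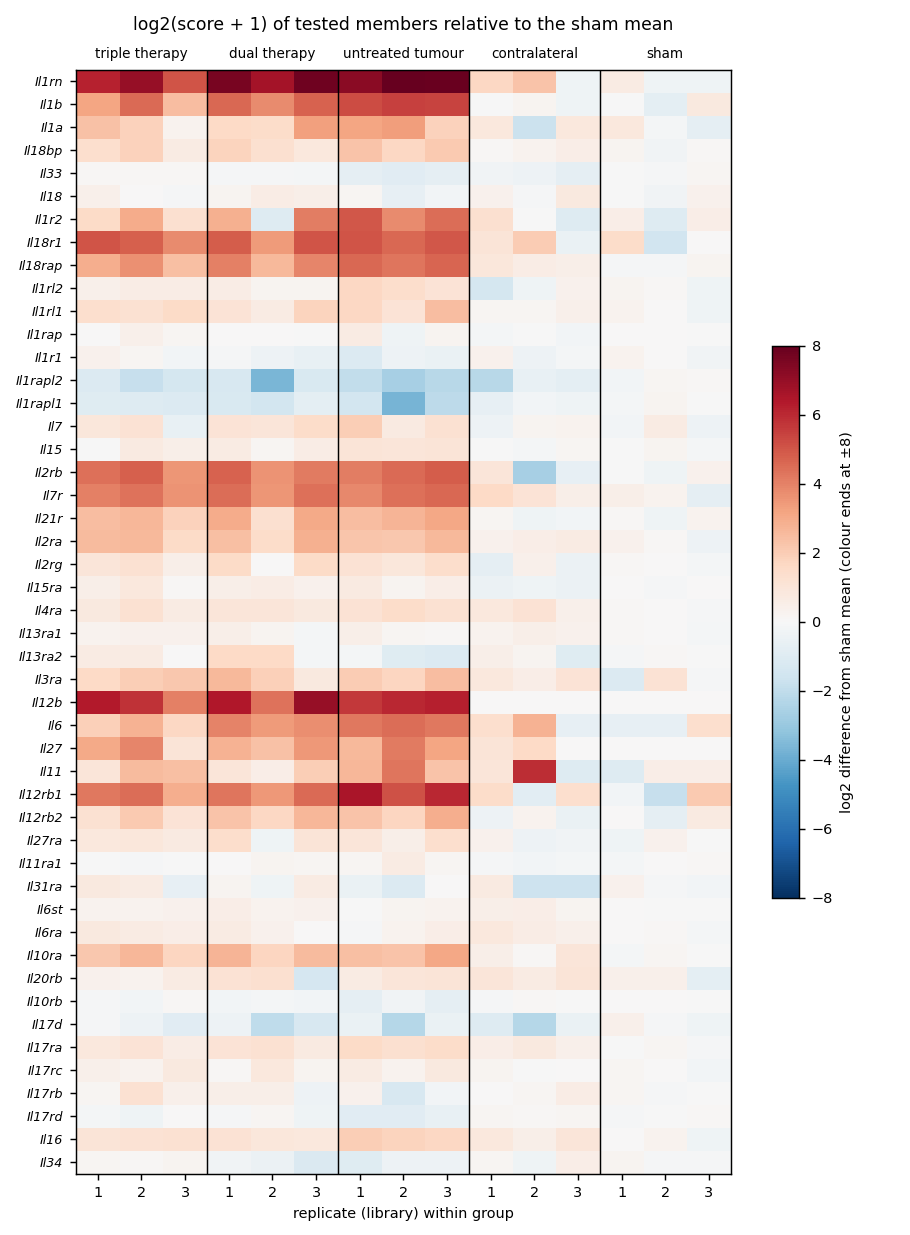
Log2(score + 1) of the 48 tested members in each of the 15 libraries, as the difference from the sham mean, with red higher and blue lower. Columns run from triple therapy on the left to sham on the right, and the leukocyte receptors such as Il2rb, Il7r and Il12rb1 are red in all 9 tumour-bearing libraries.

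Markers of several immune cell types, and other gene lists, moved beside these genes. Of the T cell markers 12 of 14 were higher in untreated tumour, with sums of 786 to 1014, against 178 to 253 in contralateral libraries. All 8 NK cell markers were higher, with sums of 1157 to 1301 in untreated tumour, against 48 to 66 in contralateral libraries, and none was at 0 in all libraries of a group. Of the monocyte and macrophage markers, 13 of 16 were higher and 2 lower, Mrc1 and Cd163, with sums of 8755 to 11948 in untreated tumour, against 4921 to 5500 in contralateral libraries. Dendritic cell markers had 4 of 8 higher and 1 lower, microglia markers 3 of 9 higher and 3 lower, and B cell markers 4 of 7 tested higher. The 4 tested neutrophil markers of 8 were higher as well, with sums over the 8 of 176 to 339 in untreated tumour, against 18 to 56 in contralateral libraries. All 12 proliferation genes were higher, with sums of 7378 to 16456 in untreated tumour, against 162 to 385 in contralateral libraries. All 14 interferon response genes were higher too, with sums of 29027 to 36929 in untreated tumour, against 8418 to 9543 in contralateral libraries. The part of these cells and lists in the interleukin results was not tested, and in bulk samples more cells of a type and more RNA per cell cannot be told apart. Endothelial identity markers summed to 67055 to 93683 in untreated tumour, against 105867 to 122669 in contralateral libraries. Of these 15 markers, 3 were lower, 1 was higher and 11 were not called. Pericyte markers summed to 23984 to 28726 in untreated tumour, against 53751 to 68667 in contralateral libraries, and 9 of 10 were lower.

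Genes that act around interleukins were counted from lists that do not hold members. Of 10 genes that process IL-1 family ligands, 9 rose in untreated tumour against contralateral and none fell. They included Casp4, an inflammatory caspase (2.004 ± 0.258, adjusted p = 6.96e-06), Casp1, which cleaves pro-IL-1 beta (1.54 ± 0.23, adjusted p = 3.62e-05), and Gsdmd, the pore through which it leaves cells (1.15 ± 0.20, adjusted p = 0.000146). Of 11 JAK kinases and STAT factors, 7 rose and none fell, with Stat4, a mediator of IL-12 signals, at 3.85 ± 0.47 (adjusted p = 3.79e-06) and Stat2, which acts in interferon signalling, at 1.89 ± 0.17 (adjusted p = 1.34e-07). The 8 SOCS inhibitors, which damp cytokine signalling, were split, with 3 higher, 3 lower and 2 not called. Socs3, induced by IL-6 type cytokines, had 807, 826 and 633 in untreated tumour, against 227, 392 and 96 in contralateral and 59, 43 and 50 in sham libraries (1.87 ± 0.33, adjusted p = 0.00019). Of 12 adaptors and kinases of IL-1 and IL-17 receptors, 3 rose and 2 fell. Tab1, a partner of the kinase TAK1, had 850, 597 and 698 in untreated tumour, against 178, 134 and 211 in contralateral libraries (2.04 ± 0.20, adjusted p = 2.72e-07). Tollip, an inhibitor of IL-1 signalling, fell by 0.62 ± 0.12 (adjusted p = 0.000506). Of 16 transcription factors of interleukin induction 8 rose and 3 fell, among them Irf8, a factor of myeloid cells, up by 3.07 ± 0.34 (adjusted p = 1.47e-06). Of 13 tested chains and ligands without an Il symbol, 4 rose and 4 fell. Csf2rb, the beta chain of IL-3, IL-5 and GM-CSF receptors, rose by 2.99 ± 0.33 (adjusted p = 1.27e-06), although reads cannot be split with certainty from its near copy Csf2rb2. Lifr, a partner of gp130, fell by 1.10 ± 0.15 (adjusted p = 9.23e-06).

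The contralateral side differed little from sham. Il4ra was the only member called, with 623, 767 and 458 in contralateral, against 358, 341 and 322 in sham libraries (0.82 ± 0.17, adjusted p = 0.031), without overlap. Over all rows 0.254% were called higher and 0.178% lower, and 1 member of 48 was higher and none was lower at that rule. By limma 10 members had an unadjusted p under 0.05, and the share of all rows under it was not counted. The Il4ra call ended in 10 of 26 alternatives. The adjusted p was 0.134 without contralateral replicate 1, 0.119 without contralateral replicate 2, 0.0734 to 0.176 without a sham library and 0.0529 without triple therapy replicate 1. Of all rows called, 58.8% were higher, and 80.7% were after quantile normalisation. The gp130 chain Il6st had 9178, 9471 and 7845 in contralateral, against 6893, 6535 and 6568 in sham libraries, and Il6ra had 900, 744 and 669 in contralateral, against 518, 543 and 440 in sham libraries. Neither pair overlapped, and neither passed (0.40 ± 0.11 and 0.62 ± 0.17, adjusted p = 0.112 for both). With quality weights for the libraries both passed, together with Il16 and Il17ra.

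After triple therapy, 7 members were lower and 6 higher than in untreated tumour, against 15% lower and 17.2% higher over all rows tested. These are 14.6% and 12.5% of the 48, near the shares over all rows. The number lower was 3 without triple therapy replicate 1 or 3, 11 with endothelial identity scaling or quality weights and 12 with voom on approximate reads. The median member differed by -0.32, and the median over all rows by -0.02. Without the 6 members that had passed the filter through tumour-bearing groups alone, 5 of 42 were lower and 6 higher, with a median of -0.20. The members that fell were Il1b, Il1rn, Il6, Il15, Il16, Il18rap and Il17ra, all of which had been higher in untreated tumour than in contralateral libraries. Those that rose were Il33, Il1r1, Il34, Il17rd, Il10rb and Il1rapl1. The comparisons share the untreated tumour libraries, so opposite signs are not independent evidence. Under endothelial identity scaling the median of all rows was -0.22, and 33.2% of called rows were higher in place of 53.5%.

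Il1b fell to 44, 120 and 27 after triple therapy, against 186, 228 and 212 in untreated tumour, a difference of -1.97 ± 0.48 (adjusted p = 0.00425). Dual therapy libraries had 121, 69 and 134, a difference of -0.995 ± 0.479 that was not called (adjusted p = 0.148). All treated libraries lay below all untreated ones. Il1rn had 90, 159 and 40 after triple and 242, 127 and 279 after dual therapy, against 187, 359 and 304 in untreated tumour (-1.70 ± 0.59 for triple, adjusted p = 0.0347). Il6 had 5, 10 and 4 after triple and 24, 16 and 20 after dual therapy, against 28, 34 and 28 in untreated tumour (-2.16 ± 0.76 for triple, adjusted p = 0.0356). Triple therapy libraries did not overlap with untreated tumour in any of these 3 genes. Il18rap had 63, 110 and 45 after triple and 141, 50 and 130 after dual therapy, against 204, 169 and 220 in untreated tumour (-1.52 ± 0.38 for triple, adjusted p = 0.00484). Il15 had 86, 148 and 123 after triple and 141, 99 and 134 after dual therapy, against 178, 176 and 180 in untreated tumour (-0.61 ± 0.21 for triple, adjusted p = 0.0342). Il17ra had 272, 324 and 230 after triple and 319, 361 and 251 after dual therapy, against 436, 368 and 428 in untreated tumour (-0.59 ± 0.17 for triple, adjusted p = 0.0109). In these 3 genes also every triple therapy library was below every untreated one. Il16 was the only member called lower after both therapies in the fit reported here. With voom on approximate reads, Il1b, Il18rap, Il12rb1 and Il1rl2 were also called lower after dual therapy (adjusted p = 0.0269, 0.0296, 0.00751 and 0.0189). Il1b and Il12rb1 were as well with only the 6 libraries compared in the fit (adjusted p = 0.0312 and 0.0108). Il1rl2 had 31, 35 and 34 after triple and 34, 27 and 26 after dual therapy, against 73, 62 and 49 in untreated tumour. It was not called after either therapy in the fit reported here (adjusted p = 0.1 for triple and 0.0562 for dual). Il16 had 80, 88 and 94 after triple and 88, 74 and 73 after dual therapy, against 159, 137 and 127 in untreated tumour (-0.68 ± 0.22 for triple, adjusted p = 0.0236, and -0.84 ± 0.22 for dual, adjusted p = 0.0108).

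The calls of Il1b and Il18rap after triple therapy held in all 26 alternatives. Those of Il1rn and Il6 ended in 7 each, those of Il15 in 6, that of Il16 in 4 and that of Il17ra in 1. Without triple therapy replicate 3 the difference was -1.19 for Il1rn (adjusted p = 0.187), -1.93 for Il6 (adjusted p = 0.118), -0.65 for Il15 (adjusted p = 0.0624) and -0.46 for Il17ra (adjusted p = 0.07). Without triple therapy replicate 1 it was -1.76 for Il1rn (adjusted p = 0.0731), -2.06 for Il6 (adjusted p = 0.0951), -0.40 for Il15 (adjusted p = 0.196) and -0.62 for Il16 (adjusted p = 0.0832). Leaving out untreated tumour replicate 1 ended the calls of Il6, Il15 and Il16 (adjusted p = 0.0754, 0.0742 and 0.0924), and that of Il16 after dual therapy (-0.75, adjusted p = 0.0516). Leaving out untreated tumour replicate 2 or 3 ended those of Il1rn (adjusted p = 0.0949 and 0.0887), Il6 (adjusted p = 0.076 and 0.0701) and Il15 (adjusted p = 0.0556 and 0.0746). Il16 also lost its call without triple therapy replicate 2 (adjusted p = 0.0542) and after quantile normalisation (adjusted p = 0.0532), and Il1rn and Il6 with a pseudocount of 0.5 (adjusted p = 0.0813 and 0.0795).

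**Figure D4:**
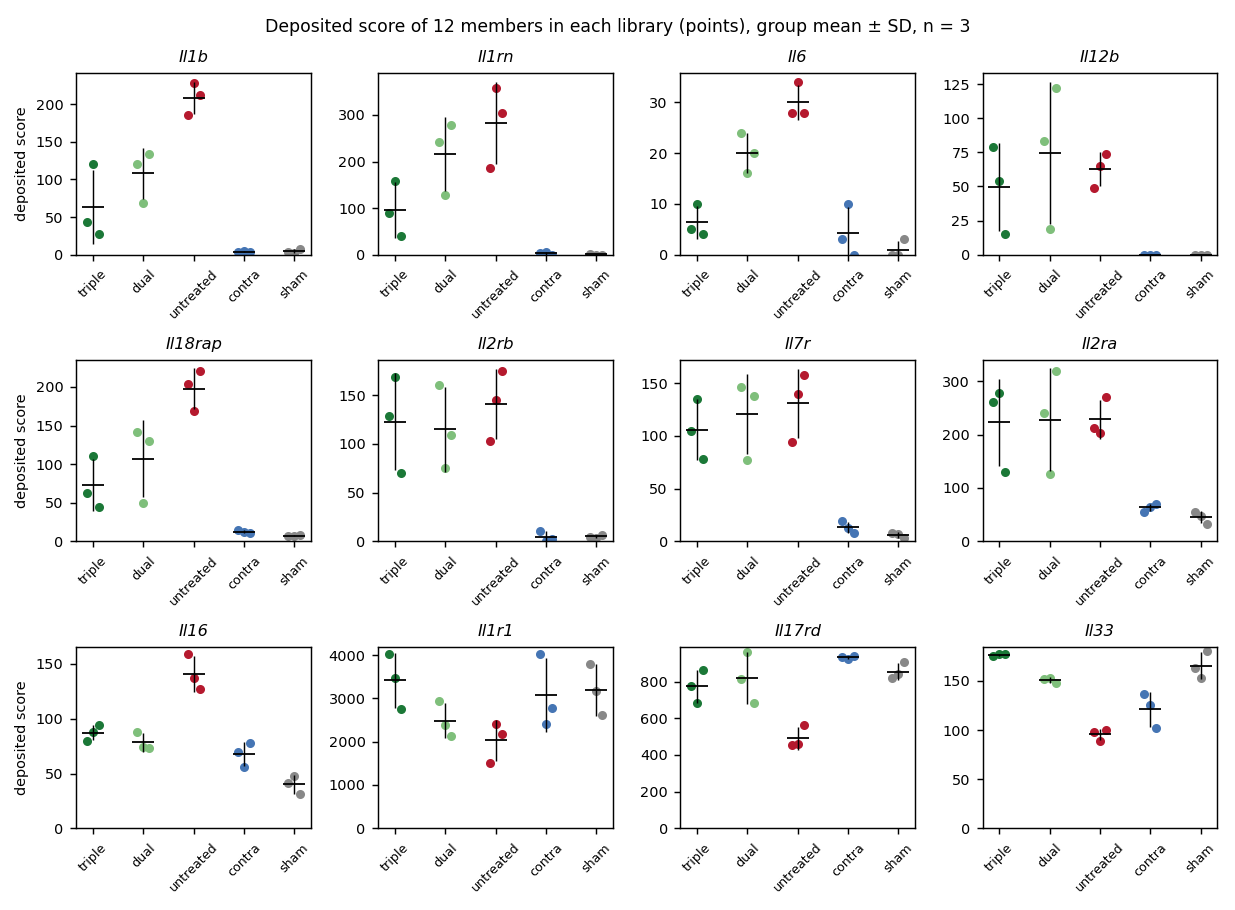
Deposited score of 12 members in each library (points) with the group mean and SD (n = 3; a lower bar that would pass below 0 is clipped), from triple therapy on the left to sham on the right. Il1b, Il1rn and Il6 have their lowest mean of the tumour-bearing groups after triple therapy, while Il2rb, Il7r and Il2ra have overlapping scores in those groups.

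Of the 28 members that had risen in untreated tumour against contralateral, 21 were not called after triple therapy. The share of all rows with this pattern was not counted. Receptors of lymphocytes were among the 21. Il2rb had 129, 169 and 70 after triple and 161, 75 and 109 after dual therapy, against 103, 145 and 175 in untreated tumour. Il7r had 105, 135 and 78 after triple and 146, 77 and 138 after dual therapy, against 94, 140 and 158 in untreated tumour. Il2ra had 260, 278 and 130 after triple and 240, 126 and 318 after dual therapy, against 212, 203 and 270 in untreated tumour. All 3 groups overlapped in these genes. None of the 9 tested receptor genes grouped with the common gamma chain, Il13ra1 and Il13ra2 included, was called after triple therapy. In the alternatives, Il4ra was called lower in 6 of 26 (adjusted p = 0.0131 with endothelial identity scaling) and Il13ra2 higher in 4 (adjusted p = 0.0156 with quality weights). Il12b also overlapped, with 79, 54 and 15 after triple and 83, 19 and 122 after dual therapy, against 49, 65 and 74 in untreated tumour. Il12rb1 was lower in every treated library, with 65, 78 and 26 after triple and 69, 39 and 80 after dual therapy, against 328, 120 and 234 in untreated tumour. Its differences of -2.02 ± 0.77 (adjusted p = 0.0533) and -1.79 ± 0.77 (adjusted p = 0.106) did not pass. Il1r2 had 5, 15 and 4 after triple and 14, 0 and 34 after dual therapy, against 65, 28 and 46 in untreated tumour (-2.52 ± 1.01 for triple, adjusted p = 0.0636). Il18bp was not called either, with 227, 316 and 137 after triple and 299, 215 and 156 after dual therapy, against 418, 279 and 369 in untreated tumour (-0.71 ± 0.27 for triple, adjusted p = 0.0545), and passed in 10 of 26 alternatives. Il12rb1 and Il1r2 passed after triple therapy in 12 and 8 of them, among these quality weights (adjusted p = 0.0308 and 0.0207) and voom on approximate reads (adjusted p = 0.00114 and 0.0192).

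The 5 members that had fallen in untreated tumour against contralateral were all higher after triple therapy. The share of all rows with this pattern was not counted, and both comparisons use the untreated tumour libraries. Il1r1 had 4025, 3480 and 2752 after triple and 2936, 2396 and 2127 after dual therapy, against 1500, 2400 and 2182 in untreated tumour. Triple therapy libraries were all above the untreated ones (0.77 ± 0.20, adjusted p = 0.00744), and dual therapy libraries overlapped with them. Il17rd had 776, 681 and 864 after triple and 815, 962 and 682 after dual therapy, against 452, 458 and 564 in untreated tumour (0.66 ± 0.13 and 0.73 ± 0.13, adjusted p = 0.00089 and 0.000762). Il10rb had 577, 521 and 656 after triple and 515, 552 and 516 after dual therapy, against 366, 508 and 363 in untreated tumour (0.52 ± 0.13 and 0.37 ± 0.13, adjusted p = 0.0055 and 0.047). Il1rapl1 had 171, 162 and 155 after triple and 144, 119 and 194 after dual therapy, against 119, 24 and 77 in untreated tumour (1.41 ± 0.37 and 1.29 ± 0.37, adjusted p = 0.00652 and 0.017). Treated and untreated libraries did not overlap in these 3 genes, apart from a dual therapy library of Il1rapl1 that equalled the highest untreated one. Il34 had 175, 165 and 182 after triple therapy, against 79, 117 and 115 in untreated tumour (0.76 ± 0.25, adjusted p = 0.0251), and 129, 110 and 67 after dual therapy. Without triple therapy replicate 1 or 3, or untreated tumour replicate 1, the adjusted p of Il34 was 0.0646, 0.0752 and 0.12, and with endothelial identity scaling it was 0.119. That scaling also ended the call of Il10rb after triple therapy (0.31, adjusted p = 0.0686).

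Il33, not called between untreated tumour and contralateral libraries in the fit reported here, rose after both therapies. It had 175, 177 and 177 after triple and 152, 153 and 148 after dual therapy, against 98, 89 and 100 in untreated tumour. The groups were tight and did not overlap, with differences of 0.88 ± 0.16 for triple (adjusted p = 0.000389) and 0.66 ± 0.16 for dual therapy (adjusted p = 0.00633). The dual therapy call of Il33 ended with endothelial identity scaling (0.45, adjusted p = 0.119) and with only the 6 libraries compared in the fit (adjusted p = 0.0702).

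After dual therapy, 5 members rose (12.1% of all rows did) and 1 fell (10.2% of all rows), and the median member differed by -0.17. Without the 6 members that had passed the filter through tumour-bearing groups alone, 5 rose and 1 fell, with a median of -0.14. This balance turned in other settings, with 2 higher and 4 lower under endothelial identity scaling, 1 and 3 with only the 6 libraries compared in the fit, and 3 and 5 with voom on approximate reads. Under endothelial identity scaling the median of all rows was -0.21, and 25.8% of called rows were higher in place of 54.3%. The 5 were Il33, Il17rd, Il10rb, Il1rapl1 and Il13ra2, and the member that fell was Il16. Il13ra2, a decoy receptor for IL-13, had 56, 57 and 16 after dual and 29, 30 and 19 after triple therapy, against 16, 9 and 8 in untreated tumour. Dual therapy replicate 3 met the untreated range, and the difference was 1.73 ± 0.49 (adjusted p = 0.0174). Without dual therapy replicate 1 or 2 the Il13ra2 difference was 1.45 (adjusted p = 0.0729) or 1.43 (adjusted p = 0.0815), and without untreated tumour replicate 3 it was 1.56 (adjusted p = 0.0566). The call of Il1rapl1 ended without dual therapy replicate 3 (1.10, adjusted p = 0.0723). That of Il10rb ended in 17 of 26 alternatives, with adjusted p up to 0.358, including each of the 3 dual therapy libraries left out (adjusted p = 0.0722 to 0.127) and untreated tumour replicate 1 or 3 (adjusted p = 0.171 and 0.163).

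**Figure D5:**
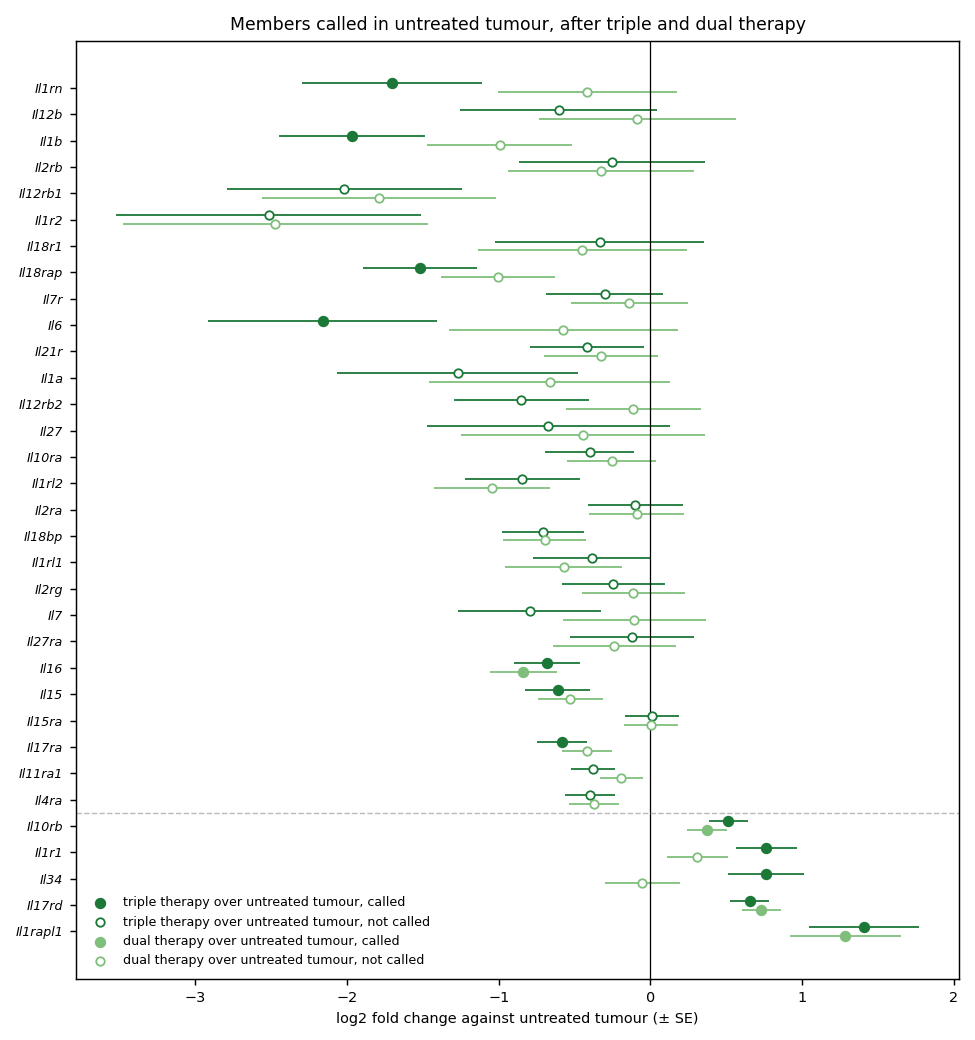
Log2 fold change against untreated tumour, with the SE of the fit, after triple therapy (dark green) and dual therapy (light green) for the 33 members called in untreated tumour against contralateral, with the 28 higher ones above the dashed line and the 5 lower ones under it. Filled points were called, and the 5 members under the line lie to the right of 0 after triple therapy.

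No member was called between triple and dual therapy, where 0.524% of all rows were higher and 0.346% lower. The count of calls was 0 under all 26 alternatives, voom included. By limma 3 members had an unadjusted p under 0.05, and the share of all rows under it was not counted. These members were Il34 (0.82 ± 0.25, adjusted p = 0.132), Il1r1 (0.46 ± 0.20, adjusted p = 0.309) and Il1rn (-1.29 ± 0.59, adjusted p = 0.325). A call after one therapy and not after the other is therefore not shown to be a difference between them. Of all rows called, 60.2% were higher after triple therapy. The share was 0% with endothelial identity scaling, where the median of all rows was 0.006 in place of 0.009. How many rows were called there is not given, so this share may rest on few.

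Gene lists moved with the therapies too. All 12 proliferation genes fell after triple and 11 after dual therapy, with sums of 1824 to 2320 after triple and 1261 to 2208 after dual therapy, against 7378 to 16456 in untreated tumour. NK cell markers summed to 228 to 627 after triple and 647 to 753 after dual therapy, against 1157 to 1301 in untreated tumour, and 5 of 8 fell after triple and 1 of 8 after dual therapy. T cell markers summed to 634 to 1132 after triple and 656 to 1101 after dual therapy, against 786 to 1014 in untreated tumour, and none of 14 was called after either. Neutrophil marker sums were 71 to 106 after triple and 105 to 156 after dual therapy, against 176 to 339 in untreated tumour. Neuron marker sums were 8828 to 12841 after triple and 5914 to 10214 after dual therapy, against 2503 to 4650 in untreated tumour. Pericyte marker sums were 52262 to 68806 after triple and 46888 to 58445 after dual therapy, against 23984 to 28726 in untreated tumour. Of the fibroblast markers, 5 of 8 rose after each therapy and 1 fell after dual therapy, and of the astrocyte markers, 4 of 8 rose after triple and 3 after dual therapy. Monocyte and macrophage markers had 2 of 16 higher and 3 lower after triple, and 2 higher and 1 lower after dual therapy. Their part in the interleukin results was not tested.

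Around the interleukins, 3 of 10 genes that process IL-1 family ligands fell after triple therapy and none after dual therapy. Casp4 had 95, 159 and 82 after triple and 254, 187 and 175 after dual therapy, against 275, 230 and 247 in untreated tumour (-1.21 ± 0.26 for triple, adjusted p = 0.00161). Of the JAK kinases and STAT factors, 2 of 11 fell after triple and 1 after dual therapy, and Stat2 was lower after both (-0.75 ± 0.17 and -0.52 ± 0.17, adjusted p = 0.00249 and 0.0325). Of the SOCS inhibitors, 3 rose and 2 fell after triple therapy, and 2 rose and 1 fell after dual therapy. Socs3 had 239, 301 and 171 after triple and 323, 270 and 328 after dual therapy, against 807, 826 and 633 in untreated tumour (-1.70 ± 0.33 and -1.29 ± 0.33, adjusted p = 0.000813 and 0.00958). Of the 12 adaptors and kinases, 2 rose and 1 fell after triple, and 1 rose and 1 fell after dual therapy. Tab1 had 142, 221 and 178 after triple and 196, 251 and 238 after dual therapy, against 850, 597 and 698 in untreated tumour (-1.99 ± 0.20 and -1.64 ± 0.20, adjusted p = 1.69e-06 and 3.26e-05). Irak2, a kinase of the IL-1 receptor, had 501, 543 and 691 after triple and 550, 518 and 502 after dual therapy, against 176, 305 and 206 in untreated tumour (1.36 ± 0.17 and 1.23 ± 0.17, adjusted p = 1.76e-05 and 0.000139). No treated library overlapped with an untreated one for Tab1, Socs3 or Irak2. Of the transcription factors 3 rose and 2 fell after triple, and 3 rose and 1 fell after dual therapy. Of the chains and ligands without an Il symbol, 2 rose and 1 fell after triple, and 1 rose and none fell after dual therapy.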

How the data were processed

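RNA from 15 libraries of brain microvessels was analysed. Per the labels' protocols, the input to the SMARTer stranded kit was 100 ng of total RNA. Alignment to GRCm38 (mm10) with STAR 2.4.0a, counting with featureCounts 1.4.5-p1 and use of DESeq2 are per the submitters' processing notes, and whether reads were counted by strand is not stated. The deposited values are whole-number normalised scores per gene, made by the authors, and not read counts. What 1 read is worth in a score (0.656 to 1.86) was estimated from the gaps between values, with a largest error of 0.002 on 7 simulated factors, so depth is approximate and reads could not be recovered exactly.

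Scores were transformed to log2(score + 1), with a pseudocount of 1. Rows that reached a score of 10 in 3 or more libraries were tested (19668, with 7506 left out). All 15 libraries were fitted together by limma 3.58.1 in R 4.3.3, using a mean-variance trend and 1 mean per group. This gave 6 comparisons and an F-test, with Benjamini-Hochberg adjustment over all tested rows and calls at an adjusted p below 0.05. The script was tested on simulated data with 200 changed genes. Every member could be named. Genes that are not members are up to 4 per list with the smallest adjusted p. Levels per length use the exons of GENCODE M21, in which all 62 identifiers matched. The members, lists and motifs were chosen with earlier results of these data known. Alternatives were other pseudocounts, no filter, quantile normalisation, endothelial identity scaling, quality weights, no trend, a replicate block, only the 6 libraries compared and each library left out. Added after the data were seen were voom on approximate reads and leaving out untreated tumour replicate 2 with dual therapy replicate 2.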

Additional observations from a re-analysis of the deposited data

How the results depend on the processing

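Of 88 calls of members over the 6 comparisons, 62 held in all 26 alternatives, 26 were lost in at least 1, and none reversed sign. With endothelial identity scaling, 3 members were lower in untreated tumour than in contralateral libraries, 0 were higher in contralateral than in sham, 2 higher and 4 lower after dual therapy and 11 lower after triple therapy. With only the 6 libraries compared in the fit, the counts were 3 lower in untreated tumour than in contralateral libraries, 0 higher in contralateral than in sham, and 1 higher and 3 lower after dual therapy. Without the trend, 0 members were higher in contralateral than in sham and 3 were higher after dual therapy. With voom on approximate reads, 0 were higher in contralateral than in sham, 3 higher and 5 lower after dual therapy, and 12 lower after triple therapy. Quality weights gave 5 higher in contralateral than in sham and 11 lower after triple therapy, and quantile normalisation gave 2 higher in contralateral than in sham. After dual therapy, 5 members were lower with a pseudocount of 5, 2 with no filter and 2 without both libraries that stood apart.

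With each library left out in turn, 25 to 29 members were higher and 4 to 7 lower in untreated tumour than in contralateral libraries, and 25 to 30 higher and 5 to 7 lower than in sham. The counts were 0 to 1 higher in contralateral than in sham libraries, 3 to 5 higher and 0 to 3 lower after dual therapy, and 5 to 7 higher and 3 to 9 lower after triple therapy. The lowest count of 3 after triple therapy came without triple therapy replicate 1 or 3, and the 0 after dual therapy without untreated tumour replicate 1. For the F-test the range was 32 to 37. The cause of these changes was not tested.

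Samples with the same replicate number did not deviate together (correlations of -0.13 to 0.103), and the labels state no pairing. With the replicate number as a block, calls over all rows were 8311 in place of 8354 for untreated tumour against contralateral, 9116 in place of 9167 against sham, 4353 in place of 4377 for dual therapy and 6309 in place of 6340 for triple therapy. Contralateral against sham gave 102 in place of 85, and triple against dual therapy 169 in place of 171. Among members the block gave 28 higher and 5 lower in untreated tumour against contralateral, 29 and 6 against sham, 4 and 1 after dual and 7 and 9 after triple therapy, 1 and 0 in contralateral against sham, 0 between the therapies and 36 in the F-test. The low depth of some libraries limits genes with scores near 0, and n = 3 pools per group limits every comparison.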

Other observations

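Il11 and Lif, both cytokines that signal through gp130, were high in a single contralateral library. Il11 had 3, 124 and 0 and Lif had 5, 219 and 6 in contralateral replicates 1, 2 and 3, against 0, 2 and 2 for Il11 and 6, 4 and 9 for Lif in sham libraries. In the same contralateral library Socs3 was 392, against 227 and 96 in the other contralateral libraries, and Il6 was 10, against 3 and 0. Without that library Il11 was called between untreated tumour and contralateral libraries (adjusted p = 0.0105). These genes were singled out after their values were seen.

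Il10 was under the filter on low scores but was 52 in untreated tumour replicate 1, against 9 and 15 in the other untreated tumour libraries, 3 to 9 after triple and 1 to 3 after dual therapy. Il4i1 had 3, 5 and 4 after triple therapy, and was listed at 0 in all dual therapy and untreated tumour libraries. It shares 83.9% of its exonic bases with Tbc1d17 on the opposite strand, and its part in these values was not tested.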
